A study of Arabidopsis thaliana with 18 samples.

Results

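The comparison described here set tga2-5-6 plants against plants of the accession Col-0, both without oxylipin, and asks which RNA levels differed between the genotypes at that baseline. Of the 18 arrays of the series, 6 entered the comparison, 3 from tga2-5-6 plants and 3 from Col-0 plants, and each held total RNA of Arabidopsis thaliana plant material on a single-colour Affymetrix array. Both groups had been treated for 4 h with methanol at 0.5% in water, so the methanol was shared by them, and no group without it was analysed here. The remaining 12 arrays were from the same genotypes after 4 h with phytoprostane A1 (PPA1) or with oxo-phytodienoic acid (OPDA), each at 75 µM and with 3 arrays a group. The labels call the replicates independent, name no organ, age or growth condition, and give no allele or origin of the mutant beyond the name tga2-5-6. The members were all 21869 of 22810 probe sets that were no array controls and reached an intensity of at least 16 on at least 3 of the 18 arrays.

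TGA factors are basic leucine zipper transcription factors that bind promoter elements with the core TGACG. TGA2, TGA5 and TGA6 form a closely related subgroup with overlapping functions, and plants without all 3 are known for a failure of systemic acquired resistance, in which these factors work with the salicylic acid receptor protein NPR1. The same factors are known for switching on detoxification genes, such as those of tau-class glutathione S-transferases, when electrophilic compounds enter the cell. At rest they can also hold some target genes down, since they recruit both activators and repressors.

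The levels below are the deposited intensities, given for replicates 1, 2 and 3 in that order. Differences are log2(tga2-5-6) minus log2(Col-0) with the standard error of a limma model fitted to all 18 arrays, and adjusted p is Benjamini-Hochberg over all 21869 probe sets. A probe set counted as called where the adjusted p was below 0.05 and the groups differed at least 2-fold. Median intensities were 183 to 185 on the tga2-5-6 arrays and 175 to 182 on the Col-0 arrays. Correlations of log2 values were 0.900 to 0.914 among tga2-5-6 arrays, 0.925 to 0.928 among Col-0 arrays and 0.900 to 0.917 between the genotypes. The 3'/5' ratio of the actin control probe sets was 48.3 ± 16.8 in tga2-5-6 and 34.4 ± 11.7 in Col-0 (SD, n = 3 each), and that of GAPDH was 1.55 ± 0.471 in tga2-5-6 and 1.26 ± 0.107 in Col-0. The part of these ratios in the differences below was not tested. No probe set was assigned to TGA2, TGA5 or TGA6 alone, so no probe set with a gene name could be used to check the labels. Probe set 250655_at, which has no gene in the annotation, lies by its number near TGA2 and TGA5. Its levels are given below, and whether it detects RNA of TGA2 or TGA5 was not tested. In RNA of plant material whose organ the labels do not name, fewer cells of a type and less RNA per cell cannot be told apart.

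Without compound, 117 of the 21869 probe sets were called, which is 0.535% of those tested. Of these, 65 (0.297%) were higher and 52 (0.238%) lower in tga2-5-6. The widest losses with a gene name were the urease gene URE, the transporter gene OCT5, the glutathione transferase gene GSTU25 and the dehydrogenase gene AT4G13180. The leading gains at high levels were ECS1, which encodes a cell wall-associated protein, and AT2G25510. The 3 tga2-5-6 arrays lay wholly above or wholly below the 3 Col-0 arrays for all 117 called probe sets, as they did for 19.2% of all probe sets tested. Such separation was also part of the rule that chose named genes. Where it is given for a gene below, it describes the levels and adds no support to the call. The called gains ran from 1.01 to 5.61 with a median of 1.74, and the called losses from -1.01 to -7.06 with a median of -1.77, against a median of 0.05 over all probe sets. In 17 of the gains the Col-0 mean, and in 5 of the losses the tga2-5-6 mean, was under the filter value of 16, so the size of these differences is not measured. With values under 16 set to 16, the medians of the same probe sets were 1.45 for the gains and -1.72 for the losses. Before adjustment, 2640 probe sets had p under 0.05. A single gene was assigned to 34 of the probe sets that were higher and to 24 of those that were lower, and these 58 are the genes named below. Another 4 called probe sets were assigned to several genes and 55 to none. Leaving out 1 array gave 21 to 39 probe sets higher and 22 to 49 lower, with the fewest without Col-0 replicate 3. A fit of the 6 arrays alone called 5 higher, among them ECS1 and AT2G25510, and 1 lower.

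**Figure D1:**
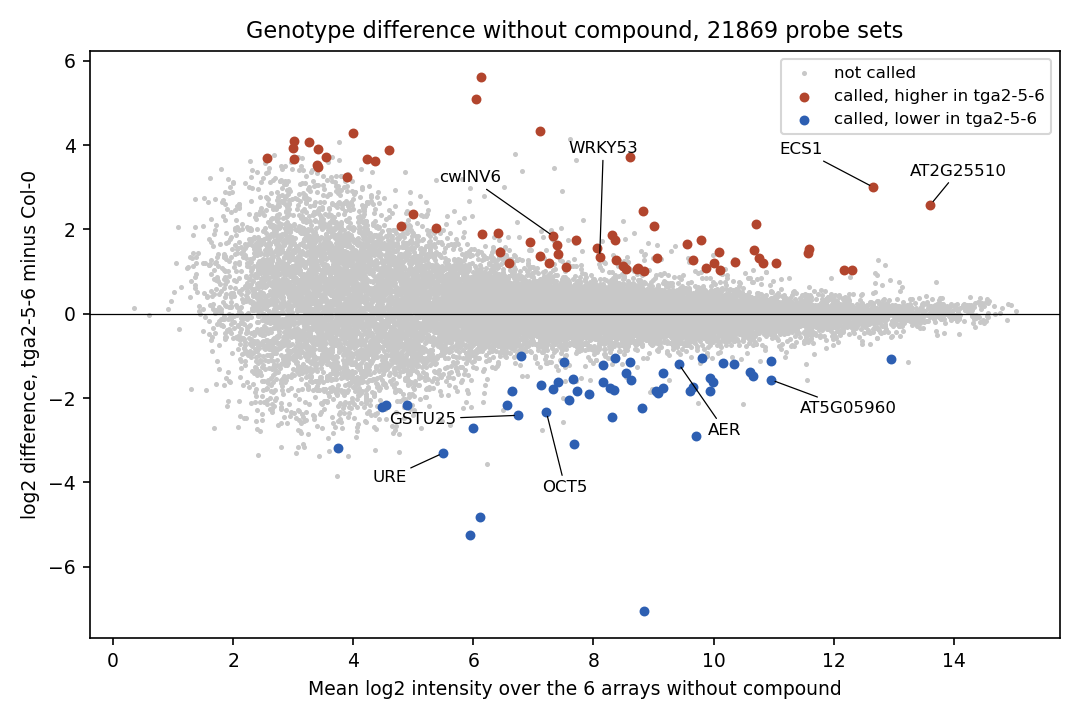
Each point is 1 of the 21869 probe sets, with its mean log2 intensity over the 6 arrays without compound on the horizontal axis and the log2 difference of tga2-5-6 minus Col-0 on the vertical axis. The 65 red points were called higher and the 52 blue points called lower in tga2-5-6; ECS1 and AT2G25510 stand apart from the grey points at high levels, and the grey points spread more widely at low levels.

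The genes that were lower in tga2-5-6 included enzymes and a transporter that handle nitrogen compounds and reactive small molecules. URE, whose product urease splits urea into ammonia and carbon dioxide, had intensities of 31.2, 12.6 and 7.53 on the tga2-5-6 arrays, against 133, 161 and 133 on the Col-0 arrays. All 3 tga2-5-6 arrays lay below all Col-0 arrays, with 2 of them under the filter value of 16. The difference was -3.31 ± 0.49, adjusted p = 0.00823, and it lay between -3.87 and -2.83 under the alternative settings. OCT5, a member of the organic cation and carnitine transporter family, had 82.6, 40.1 and 87.2 on the tga2-5-6 arrays, against 326, 383 and 301 on the Col-0 arrays. The groups were far apart compared with their spread, and the difference was -2.34 ± 0.27, adjusted p = 0.00138 (95% interval -2.93 to -1.75). AT4G13180, a gene of the short-chain dehydrogenase family, had 215, 147 and 279 on the tga2-5-6 arrays, against 849, 1131 and 941 on the Col-0 arrays. Its difference was -2.23 ± 0.29, adjusted p = 0.00284, and again the groups did not overlap. For these 3 genes the call was kept whichever of the 6 arrays was left out.

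GSTU25 encodes a tau-class glutathione S-transferase, an enzyme that joins glutathione to electrophilic molecules. It had 71.4, 71.5 and 20 on the tga2-5-6 arrays, against 305, 282 and 178 on the Col-0 arrays, so that the highest mutant array was under the lowest Col-0 array by more than the mutant's own range. The difference was -2.41 ± 0.44, adjusted p = 0.0284, a call lost without any 1 of the Col-0 arrays. AER, which encodes an alkenal reductase that removes the reactive double bond of lipid-derived alkenals, had 477, 404 and 483 on the tga2-5-6 arrays, against 740.4, 1349 and 1101 on the Col-0 arrays. The mutant arrays were close together and the Col-0 arrays widely spread, and the difference was -1.19 ± 0.22, adjusted p = 0.0284. AT5G16980, the next annotated gene on chromosome 5 and a relative of AER, had 54.2, 68.4 and 40.2 on the tga2-5-6 arrays, against 141, 274 and 171 on the Col-0 arrays, with a difference of -1.82 ± 0.38, adjusted p = 0.0487. These neighbours thus had the same direction and groups that did not overlap; whether their probe sets detect each other's RNA was not tested. The call of AER was lost without any 1 of the tga2-5-6 arrays or Col-0 replicate 2 or 3, and that of AT5G16980 without any 1 of the 6 arrays, after median centring, with no filter, in the fit of the 6 arrays alone and with the replicate number as a block.

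Genes for secreted or lipid-binding proteins were also among the losses. AT5G05960, of the lipid-transfer protein superfamily, had 1173, 1412 and 935 on the tga2-5-6 arrays, against 3483, 3272 and 3548 on the Col-0 arrays, with a difference of -1.57 ± 0.18, adjusted p = 0.00138; its call was kept whichever array was left out. Of the same superfamily, AT4G33550 had 123, 112 and 102 on the tga2-5-6 arrays, against 452, 334 and 431 on the Col-0 arrays (-1.84 ± 0.31, adjusted p = 0.0165). AT2G44300, another gene of the kind, had 138, 94.5 and 50.2 on the tga2-5-6 arrays, against 330.4, 266 and 299.6 on the Col-0 arrays (-1.78 ± 0.34, adjusted p = 0.0374). In each of these the lowest Col-0 array stood well above the highest tga2-5-6 array. AT2G19970, of the CAP family that also holds the defence protein PR-1, had 514, 419.8 and 658 on the tga2-5-6 arrays, against 1859, 1789 and 1934 on the Col-0 arrays, a difference of -1.83 ± 0.29, adjusted p = 0.0114. The call of AT2G19970 was lost without Col-0 replicate 3, that of AT4G33550 without any 1 of the tga2-5-6 arrays or Col-0 replicate 1 or 3, and that of AT2G44300 without tga2-5-6 replicate 2 or 3 or any 1 of the Col-0 arrays.

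Stress-related genes and a dioxygenase gene were lower as well. AT2G29500, which encodes a small heat shock protein, had 568, 595 and 585 on the tga2-5-6 arrays, against 1739, 2054 and 1301 on the Col-0 arrays. The mutant arrays were nearly equal and all under the lowest Col-0 array, with a difference of -1.52 ± 0.26, adjusted p = 0.0165. LTI30, which encodes a cold-induced dehydrin, had 261, 274 and 251 on the tga2-5-6 arrays, against 446, 757 and 576 on the Col-0 arrays, with a difference of -1.15 ± 0.21, adjusted p = 0.03. AT1G04350, of the 2-oxoglutarate-dependent dioxygenase family, had 268, 244 and 182 on the tga2-5-6 arrays, against 785, 509 and 784 on the Col-0 arrays (-1.57 ± 0.26, adjusted p = 0.0145), and AT5G66985 had 302, 299 and 244 on the tga2-5-6 arrays, against 746, 1168 and 1256 on the Col-0 arrays (-1.88 ± 0.30, adjusted p = 0.014). The groups did not overlap in these 4 genes. The calls were lost when certain single arrays were left out: AT2G29500 lost its call without any 1 of the tga2-5-6 arrays or Col-0 replicate 1 or 2, LTI30 without any 1 of the tga2-5-6 arrays or Col-0 replicate 2 or 3, AT1G04350 without tga2-5-6 replicate 3 or Col-0 replicate 1 or 3 and AT5G66985 without Col-0 replicate 2 or 3.

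Another 3 genes that were lower stood in tga2-5-6 at a mean under 16 and are given as levels only. They were AT3G22290 (11.7 ± 6.84 in tga2-5-6 against 47.9 ± 6.04 in Col-0), the pseudogene AT1G42220 (11.7 ± 4.34 in tga2-5-6 against 53.2 ± 22.2 in Col-0) and the serine carboxypeptidase-like gene scpl31 (15.6 ± 8.76 in tga2-5-6 against 64.1 ± 13.7 in Col-0; SD, n = 3 each). The adjusted p was 0.0248 for AT3G22290, 0.0413 for AT1G42220 and 0.0298 for scpl31. Leaving out an array, the call of AT3G22290 was lost without tga2-5-6 replicate 1 or 2 or any 1 of the Col-0 arrays, that of AT1G42220 without any 1 of the tga2-5-6 arrays or Col-0 replicate 1 or 3, and that of scpl31 without tga2-5-6 replicate 1 or 3 or any 1 of the Col-0 arrays.

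Among the genes that were higher in tga2-5-6, those at high levels were led by ECS1, with 20149, 19841 and 15482 on the tga2-5-6 arrays, against 2335, 2175 and 2371 on the Col-0 arrays. The mutant's lowest array was several times the highest Col-0 array, and the difference was 3.0 ± 0.33, adjusted p = 0.000999, an 8.01-fold gain (95% interval 2.30 to 3.71). AT2G25510 had 32932, 33409.6 and 26437 on the tga2-5-6 arrays, against 5443, 4695 and 5235 on the Col-0 arrays, which put it among the brightest probe sets of the mutant. Its difference was 2.59 ± 0.17, adjusted p = 7.23e-06. The fructan exohydrolase gene cwINV6, named for the cell wall invertase family, had 311, 343 and 266 on the tga2-5-6 arrays, against 89.6, 75.9 and 91.5 on the Col-0 arrays, and the difference was 1.84 ± 0.23, adjusted p = 0.00192. AT1G49750, which encodes a leucine-rich repeat protein, had 2806, 2832 and 2624 on the tga2-5-6 arrays, against 1169.9, 1216 and 933 on the Col-0 arrays (1.32 ± 0.15, adjusted p = 0.00138). All 4 genes kept their calls whichever array was left out, and in none did the groups overlap.

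Receptor kinase, chitinase and transcription factor genes followed. AT1G35710, which encodes a leucine-rich repeat receptor kinase, had 210.2, 219 and 239 on the tga2-5-6 arrays, against 54.6, 81.1 and 71.6 on the Col-0 arrays, with a difference of 1.71 ± 0.31, adjusted p = 0.026. AT1G11330, which encodes a lectin receptor kinase, had 1052, 643 and 904 on the tga2-5-6 arrays, against 361, 446 and 237 on the Col-0 arrays (1.33 ± 0.22, adjusted p = 0.0159). AT2G43620, of the chitinase family, had 4905, 5137 and 5056 on the tga2-5-6 arrays, against 2061, 2238 and 1348 on the Col-0 arrays (1.45 ± 0.27, adjusted p = 0.0281). The tga2-5-6 arrays were above every Col-0 array in these 3 genes. The chitinase-family gene AT2G43610, the nearest measured gene to AT2G43620 on chromosome 2, was called too, at 3215 in tga2-5-6 against 1387 in Col-0 (1.21 ± 0.20, adjusted p = 0.0156). WRKY53, a transcription factor gene known from leaf senescence and defence, had 402, 482 and 432 on the tga2-5-6 arrays, against 131, 270.0 and 146 on the Col-0 arrays, and AT3G56360 had 1478, 1181 and 1367 on the tga2-5-6 arrays, against 438, 339 and 519 on the Col-0 arrays. The differences were 1.34 ± 0.25, adjusted p = 0.0323 for WRKY53 and 1.65 ± 0.31, adjusted p = 0.0323 for AT3G56360, again without overlap of the groups. The calls of AT1G35710 and AT3G56360 were lost without any 1 of the 6 arrays, that of AT1G11330 without tga2-5-6 replicate 1 or 3 or Col-0 replicate 3, that of AT2G43620 without any 1 of the tga2-5-6 arrays or Col-0 replicate 1 or 3, and that of WRKY53 without any 1 of the tga2-5-6 arrays or Col-0 replicate 1 or 3.

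**Figure D2:**
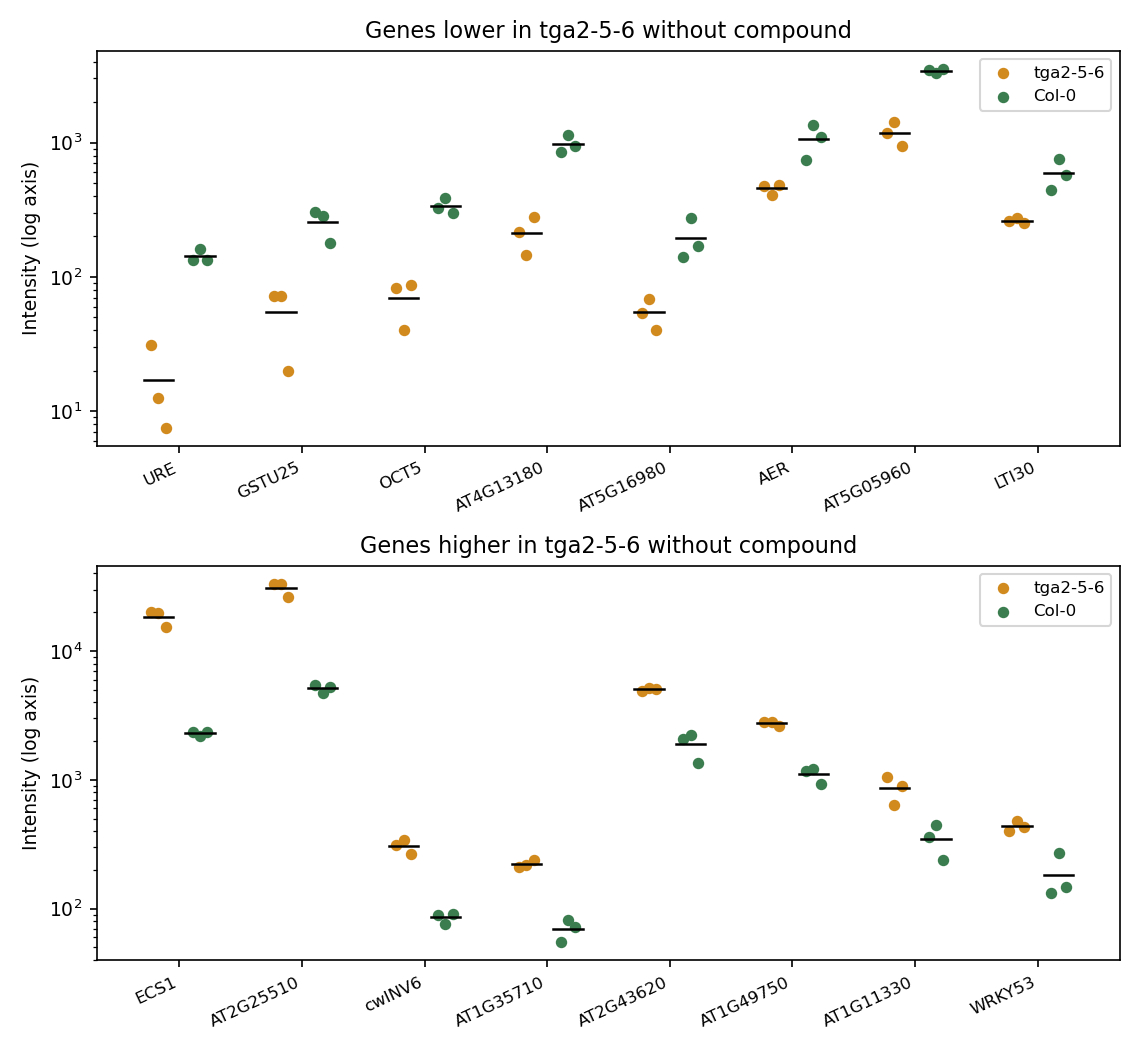
Intensity on a logarithmic axis for 8 genes that were lower (upper panel) and 8 that were higher (lower panel) in tga2-5-6 without compound. Each dot is 1 array, orange for tga2-5-6 on the left and green for Col-0 on the right of each gene, and the bars mark the means of 3 arrays. The groups overlap in none of the 16 genes, as in none of the 117 called probe sets, and tga2-5-6 spans the lowest levels for URE.

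The 12 widest gains with a gene name came from probe sets that were dim in Col-0. In these genes the Col-0 mean lay between 1.61 and 8.99, under the filter value, and the tga2-5-6 mean between 21.8 and 73.1. Of these 12, 6 are annotated as pseudogenes, against 784 of all 12848 tested probe sets with 1 gene (6.10%), which include bright ones. Among the called genes, 7 of 20 with a mean under 100 over the 18 arrays were pseudogenes, and 0 of 38 with at least 100. The 6 include AT5G33250, AT1G42630 and AT2G10490, which depended on the tga2-5-6 arrays for passing the filter, as given below. The share of pseudogenes among dim probe sets was not tested. AT1G13470 had 85.3, 80.5 and 52 in tga2-5-6 and 18, 1.55 and 1.69 in Col-0 (adjusted p = 0.0375). AT5G62330 had 80.4, 45.7 and 79.6 in tga2-5-6 and 10.4, 2.54 and 5.43 in Col-0 (adjusted p = 0.0239). The pseudogene AT5G32630 had 78.3, 85.3 and 55.7 in tga2-5-6 and 17.9, 1.47 and 7.58 in Col-0 (adjusted p = 0.0323), and the pseudogene AT2G05820 had 30.2, 36.9 and 32.9 in tga2-5-6 and 2.12, 2.38 and 1.46 in Col-0 (adjusted p = 0.0487). The groups did not overlap in any of them, but all levels were under the median intensity of the arrays. The other 8 were AT5G37860, AT1G61840, AT2G18115, AT2G10490, AT5G38040, AT5G33250, AT1G42630 and AT1G05550. None of the 12 calls was kept in all 6 fits that left out an array, and 5 were lost in every one of them: AT2G05820, AT5G37860, AT2G10490, AT5G38040 and AT5G33250. The call of AT1G13470 was lost without any 1 of the tga2-5-6 arrays or Col-0 replicate 2 or 3, that of AT5G62330 without tga2-5-6 replicate 1 or 3 or Col-0 replicate 2 or 3, and that of AT5G32630 without any 1 of the tga2-5-6 arrays or Col-0 replicate 3. AT5G33250 and AT1G42630 passed the filter only through the 3 tga2-5-6 arrays without compound, so they were tested only because they were high there. Besides those 3 arrays, AT5G62330 reached 16 only on tga2-5-6 replicate 3 under OPDA (29.3). For AT2G10490 the only other such array was tga2-5-6 replicate 3 under PPA1 (16.8). Without the 3 tga2-5-6 arrays without compound, neither gene would have been tested. The share of probe sets below 16 was 14.7% ± 0.277 on the tga2-5-6 arrays and 15.7% ± 0.415 on the Col-0 arrays, and its part in these gains was not tested.

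The rest of the called genes were 13 that were higher (12 of them by 1.04 to 2.04) and 7 that were lower (-1.01 to -1.69), named here after their values were seen. Among the higher ones, the wall-associated kinase-like genes AT1G16260 (387 in tga2-5-6 against 116 in Col-0; 1.74 ± 0.15, adjusted p = 8.51e-05) and AT1G69730 (521 in tga2-5-6 against 218 in Col-0; 1.27 ± 0.19, adjusted p = 0.0105) stood beside AT1G51790, which encodes a leucine-rich repeat receptor kinase (1.07). ENGase85A, which encodes an enzyme that releases N-glycans from proteins, was higher by 1.07, the defensin-like gene AT4G22212 by 1.04 and AT2G39210, of the major facilitator family, by 1.05. AT4G33810, of a glycosyl hydrolase family (1.43), AT1G74440 (1.38), AT1G24320 (1.88), AT1G29200 (2.04) and AT2G07722 (1.19) completed the group with AT2G43610, and AT4G37850, a basic helix-loop-helix factor gene, stood at 84.9 in tga2-5-6 against 14.2 in Col-0 (adjusted p = 0.0477). The lower ones were AT4G19880, of a glutathione transferase family (971 in tga2-5-6 against 2547 in Col-0; -1.38 ± 0.21, adjusted p = 0.0105), AT5G61820 (864 in tga2-5-6 against 1975 in Col-0; -1.20 ± 0.17, adjusted p = 0.0064), AT5G61660 (-1.41), AT4G00390 (-1.69), the lipid-transfer family gene AT3G53980 (-1.13), the lipase-like gene AT3G53100 (-1.15) and the calmodulin-like gene CML23 (-1.01). Of these 20 calls, those of AT1G16260, AT4G19880 and AT5G61820 were kept in all 6 fits that left out an array. The other 17 were lost without at least 1 array, that of AT1G69730 without Col-0 replicate 3 alone, and those of AT1G29200, AT1G74440, AT4G00390, CML23 and ENGase85A without any 1 of the 6 arrays.

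Several of the widest differences came from probe sets with no gene in the annotation used here, chosen for mention after their values were seen. Probe set 263046_at had 89.5, 5.60 and 127 on the tga2-5-6 arrays, against 5811, 4664 and 5564 on the Col-0 arrays (-7.06 ± 0.84, adjusted p = 0.00148). The loss was present on every mutant array and was the widest of all called differences. Probe set 250655_at had 21.2, 2.33 and 19.9 on the tga2-5-6 arrays, against 372, 407 and 357 on the Col-0 arrays, and its mutant mean of 14.5 was under the filter value (adjusted p = 0.00306). Its mean was 2.47 in tga2-5-6 against 398 in Col-0 under PPA1, and 2.44 in tga2-5-6 against 393 in Col-0 under OPDA. The number of 250655_at lies between those of the probe sets for the nearest measured genes on each side of TGA2 and TGA5. Whether it detects RNA of TGA2 or TGA5 was not tested. Probe set 253080_at, a called loss at 5.13 in tga2-5-6 against 40.6 in Col-0 (adjusted p = 0.0203), passed the filter only through the 3 Col-0 arrays without compound. In the other direction, probe set 257382_at had 360.5, 475 and 334 on the tga2-5-6 arrays, against 13.8, 8.33 and 12.7 on the Col-0 arrays, with a Col-0 mean of 11.6 (adjusted p = 5.15e-05). Probe set 265837_at had 230.0, 1313 and 384 on the tga2-5-6 arrays, against 5.94, 2.70 and 62.1 on the Col-0 arrays (5.61 ± 1.12, adjusted p = 0.0419), where the mutant arrays were high and the Col-0 arrays low but uneven. Probe set 257216_at had 305, 349 and 272 on the tga2-5-6 arrays, against 2050.4, 2668 and 2203 on the Col-0 arrays, and with -2.90 ± 0.15, adjusted p = 7.06e-07 it had the lowest adjusted p of the comparison.

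The genotypes could be compared again in the plants given PPA1 or OPDA, on arrays that share none with the comparison without compound. The 3 comparisons come from the same fit, however, and a probe set has the same standard error in each. A probe set with a small standard error is therefore more easily called in all of them, and the repeated calls are not independent. Under PPA1, 344 probe sets (1.57%) were called between the genotypes, 151 (0.69%) higher and 193 (0.883%) lower in tga2-5-6. Under OPDA 172 (0.787%) were called, 84 (0.384%) higher and 88 (0.402%) lower. Of the 117 called without compound, 78 were called in the same direction under PPA1, which is 66.7% of the 117 and 22.7% of the 344. Under OPDA 70 were called in the same direction, 59.8% of the 117 and 40.7% of the 172. The call was made in all 3 comparisons for 62 probe sets and in neither treated comparison for 31, and none was called in the opposite direction. Losses were called again under both compounds in 36 of 52 cases and gains in 26 of 65.

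Bright and dim probe sets are given apart here, since the widest gains were dim. The mean used for this split includes the treated arrays on which the repeated calls were made. A gain that stayed high under a compound thereby raised its own mean, so the split is not independent of the repeated calls. Of the 92 called probe sets with a mean intensity of at least 100 over the 18 arrays, 75 (81.5%) were called again under PPA1, 67 (72.8%) under OPDA and 61 under both. Of the 25 with a mean under 100, 3 (12%) were called again under PPA1, 3 under OPDA and 1 under both. Of the 20 dim gains, 1 was called again under PPA1 and 2 under OPDA, and the sign was the same in 15 under PPA1 and in 13 under OPDA. Of the 12 dim named genes, AT5G38040 was called again under PPA1 and none under OPDA. In 5 of the 12 the tga2-5-6 level was called lower under at least 1 compound than without, in 4 the Col-0 level was called higher (1 gene did both), and in 4 neither was the case. These responses share the control arrays with the comparison without compound.

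**Figure D3:**
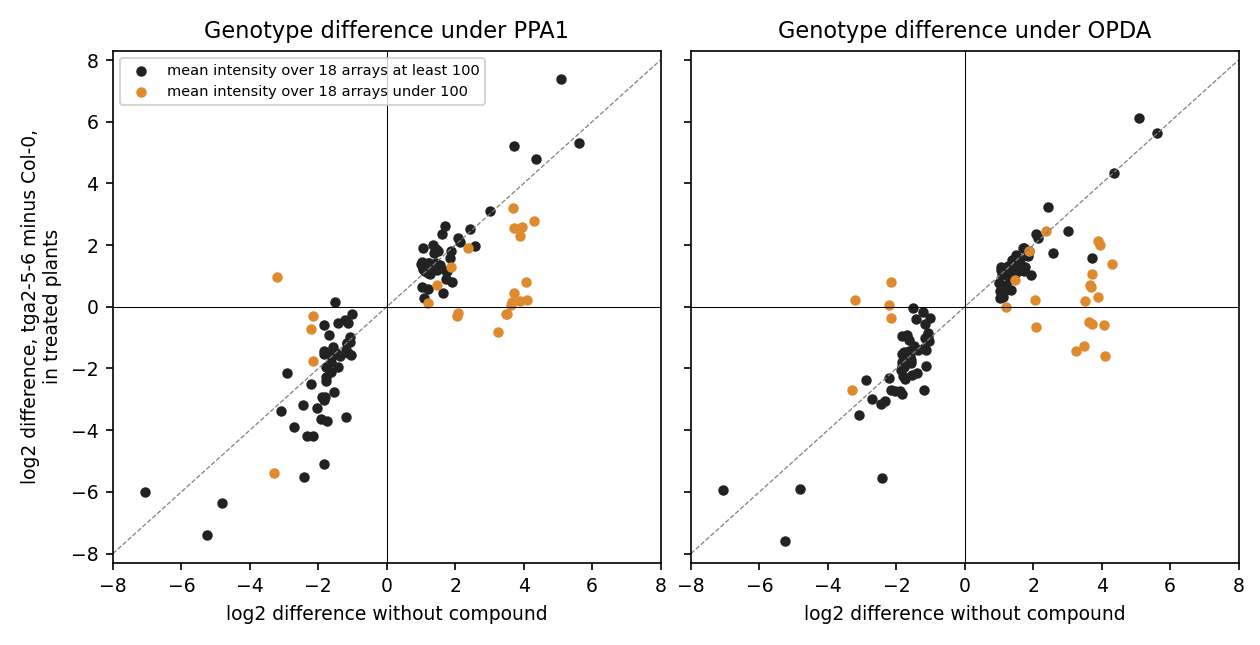
Log2 difference of tga2-5-6 minus Col-0 for the 117 called probe sets, without compound on the horizontal axis and under PPA1 (left) or OPDA (right) on the vertical axis; the dashed line marks equal differences. Of the 92 black points (mean intensity over 18 arrays at least 100), 91 have the same sign under PPA1 and 92 under OPDA. Some lie well off the line under PPA1, such as GSTU25 (-2.41 without compound, -5.52 under PPA1) and AT2G19970 (-1.83 without compound, -0.60 under PPA1). Of the 20 dim gains in orange, 15 have the same sign under PPA1 and 13 under OPDA.

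By gene, ECS1 stood under PPA1 at 19191 ± 2807 in tga2-5-6 against 2331 ± 943 in Col-0 and under OPDA at 15052 ± 3072 in tga2-5-6 against 2910.2 ± 1403 in Col-0 (SD, n = 3 each), so the level in each genotype was near that without compound. AT2G25510 differed by 1.96 under PPA1 and 1.74 under OPDA, and cwINV6 by 1.59 under PPA1 and 1.64 under OPDA. These 3 genes were called in all 3 comparisons. AT1G49750 differed by 0.99 ± 0.15, adjusted p = 0.00594 under OPDA, just short of 2-fold. WRKY53 differed by 2.01 ± 0.25, adjusted p = 0.00068 under PPA1 and by 0.53 ± 0.25, adjusted p = 0.45 under OPDA. In Col-0 the WRKY53 level was 178 under PPA1, 87.9 under OPDA and 182 without compound.

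The genes that were lower without compound behaved in several ways once a compound was given. URE remained at a low level in the mutant, with 3.58 in tga2-5-6 against 150.3 in Col-0 under PPA1 and 26.6 in tga2-5-6 against 142 in Col-0 under OPDA, and the Col-0 level was nearly the same in all treatments. GSTU25 stood at 158 in tga2-5-6 against 6659.8 in Col-0 under PPA1 and at 64.1 in tga2-5-6 against 2968 in Col-0 under OPDA, differences of -5.52 and -5.54. Its change with PPA1 was 1.63 in tga2-5-6 and 4.74 in Col-0, where only the Col-0 change was called. OCT5 changed with PPA1 by 0.02 in tga2-5-6 and 1.87 in Col-0, again called only in Col-0. The test of the genotype difference under PPA1 minus that without compound gave an adjusted p of 0.162 for GSTU25 and 0.169 for OCT5, so a difference in response was not called for either. AT4G13180 was induced in both genotypes, by 2.38 in tga2-5-6 and 2.65 in Col-0 under PPA1, and the genotype difference was -2.49 under PPA1 and -2.30 under OPDA. LTI30 changed with PPA1 by 2.76 in tga2-5-6 and 3.13 in Col-0, all called, with genotype differences of -1.51 under PPA1 and -1.91 under OPDA. AT2G29500 stood at 15556 in tga2-5-6 against 14566 in Col-0 under PPA1 and at 9522 in tga2-5-6 against 9886 in Col-0 under OPDA, and neither treated difference was called (0.16 and -0.03). For AT2G29500 the genotype difference under PPA1 minus that without compound was 1.67 ± 0.36, adjusted p = 0.194, and was not called.

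AER was the 1 probe set of the 117 for which the genotype difference was itself called as changed by a compound. Under PPA1 it had 398, 448 and 369 on the tga2-5-6 arrays, against 4207, 5104 and 4999 on the Col-0 arrays, a difference of -3.56 ± 0.22, adjusted p = 1.59e-06. The mutant arrays stayed near their level without compound, while the Col-0 arrays were several times higher. The genotype difference under PPA1 minus that without compound was -2.37 ± 0.31, adjusted p = 0.0363. Under OPDA the same quantity was -1.50 ± 0.31, adjusted p = 0.371. AT1G14130, which encodes a dioxygenase, was the other gene called for PPA1 (-2.20 ± 0.29, adjusted p = 0.0363); without compound it did not differ beyond the spread, at 263 in tga2-5-6 against 261 in Col-0 (-0.01 ± 0.21, adjusted p = 0.988). These were 2 calls among 21869 probe sets (0.00915%), both negative. The number of negative calls ran from 0 to 7 when 1 array was left out, and was 0 without Col-0 replicate 3 of the plants without compound, without any 1 of the Col-0 arrays under PPA1, without tga2-5-6 replicate 1 or 3 under PPA1, and after quantile normalization. For OPDA limma called 0 probe sets, with 1419 at an unadjusted p under 0.05.

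Across the 37 gene lists, which were drawn up with earlier results of these data known, 313 genes were measured and 8 were called, where 0.535% of all probe sets were, and no list held more than 1 called gene. Members that were not called are named here after their values were seen. In the salicylic acid list ECS1 was the 1 called gene of 5, and all 5 differences were positive. The list median of 1.60, against 0.05 over all probe sets, was the value of GRX480, which was not called. The medians of these 5 genes were 0.34 under PPA1 and 0.92 under OPDA. UGT76B1, a glycosyltransferase gene of salicylic acid metabolism, had 455 ± 132 in tga2-5-6 and 193 ± 26.6 in Col-0 (1.21 ± 0.28, adjusted p = 0.0724). GRX480, whose glutaredoxin binds TGA factors, had 87.3 ± 62.5 in tga2-5-6 and 31.3 ± 24.3 in Col-0 (1.60 ± 0.69, adjusted p = 0.376). Neither passed, although for UGT76B1 the groups did not overlap. BSMT1, a methyltransferase gene that makes methyl salicylate, had 65.4 ± 79.6 in tga2-5-6 and 11.7 ± 9.79 in Col-0 (adjusted p = 0.526), and SAG101, a gene of immune receptor signalling, had 168 ± 22.4 in tga2-5-6 and 137 ± 33.2 in Col-0 (0.32 ± 0.19, adjusted p = 0.544). Of 11 tau-class glutathione S-transferase genes GSTU25 was the 1 called, 9 differences were negative and the median was -0.33. GSTU16 had 175 ± 58.5 in tga2-5-6 and 352 ± 89.5 in Col-0 (-1.03 ± 0.30, adjusted p = 0.165). GSTU20, the brightest of the class, had 6046 ± 701 in tga2-5-6 and 7705 ± 1679 in Col-0 (-0.33 ± 0.18, adjusted p = 0.506). In the list of other detoxification genes AER was called and all 5 differences were negative. The list median of -1.18 was the value of UGT73C1, a glycosyltransferase gene with 44.4 ± 49.6 in tga2-5-6 and 50.5 ± 30.4 in Col-0 (-1.18 ± 1.24, adjusted p = 0.755). The widest, UGT73B4 of the same family, had 6.63 ± 7.11 in tga2-5-6 and 29.6 ± 18.7 in Col-0 (adjusted p = 0.195), with the mutant mean under 16. There UGT73B5, a glycosyltransferase gene, had 61.1 ± 11.6 in tga2-5-6 and 104 ± 20.9 in Col-0 (-0.76 ± 0.36, adjusted p = 0.423), and ALDH3F1, an aldehyde dehydrogenase gene, had 2464 ± 230.2 in tga2-5-6 and 2553 ± 327 in Col-0 (-0.05 ± 0.15, adjusted p = 0.932).

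The remaining lists held few or no calls. WRKY53 was the 1 called gene of 7 WRKY factors (median -0.02), LTI30 of 9 abscisic acid and drought genes (median 0.11), scpl31 of 27 serine carboxypeptidase-like genes (median -0.04), OCT5 of 3 organic cation transporters and URE of 3 nitrogen genes. None was called among 50 UDP-glycosyltransferases (median -0.08), 30 cell wall loosening genes (-0.22), 22 cytochromes P450 (-0.03), 22 bZIP factors outside the TGA group (-0.08), 17 defence peptides (-0.25), 15 cell cycle and histone genes (0.03) or 11 auxin genes (0.31). No gene was called among 4 jasmonate biosynthesis and 4 jasmonate response genes either, or among 6 heat shock genes, a list that did not include AT2G29500. Of 28 photosynthesis genes none was called, but 24 had a negative difference, with a median of -0.30. In 9 the tga2-5-6 arrays were all below the Col-0 arrays, as held for 7.73% of all probe sets. Most of the 28 genes, and most of these 9, are encoded in the plastid. The only nuclear genes among the 9 were LHCB4.3 (-0.87 ± 0.27) and LHCB4.1 (-0.17 ± 0.16). Under PPA1 the photosynthesis median was -0.07 and under OPDA -0.09. The root marker PYK10 had 17412 ± 1234 in tga2-5-6 and 17839.7 ± 1762 in Col-0, and the root hair expansin gene EXPA7 had 242 ± 51.8 in tga2-5-6 and 303 ± 143 in Col-0 (SD, n = 3 each), and neither difference passed. RCA, which encodes the rubisco activase of green tissue, had 20346 ± 2521 in tga2-5-6 and 20409 ± 2045 in Col-0. Of the flower and pollen list only AMS was measured, at 41.4 ± 30.7 in tga2-5-6 and 22.8 ± 16.6 in Col-0.

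**Figure D4:**
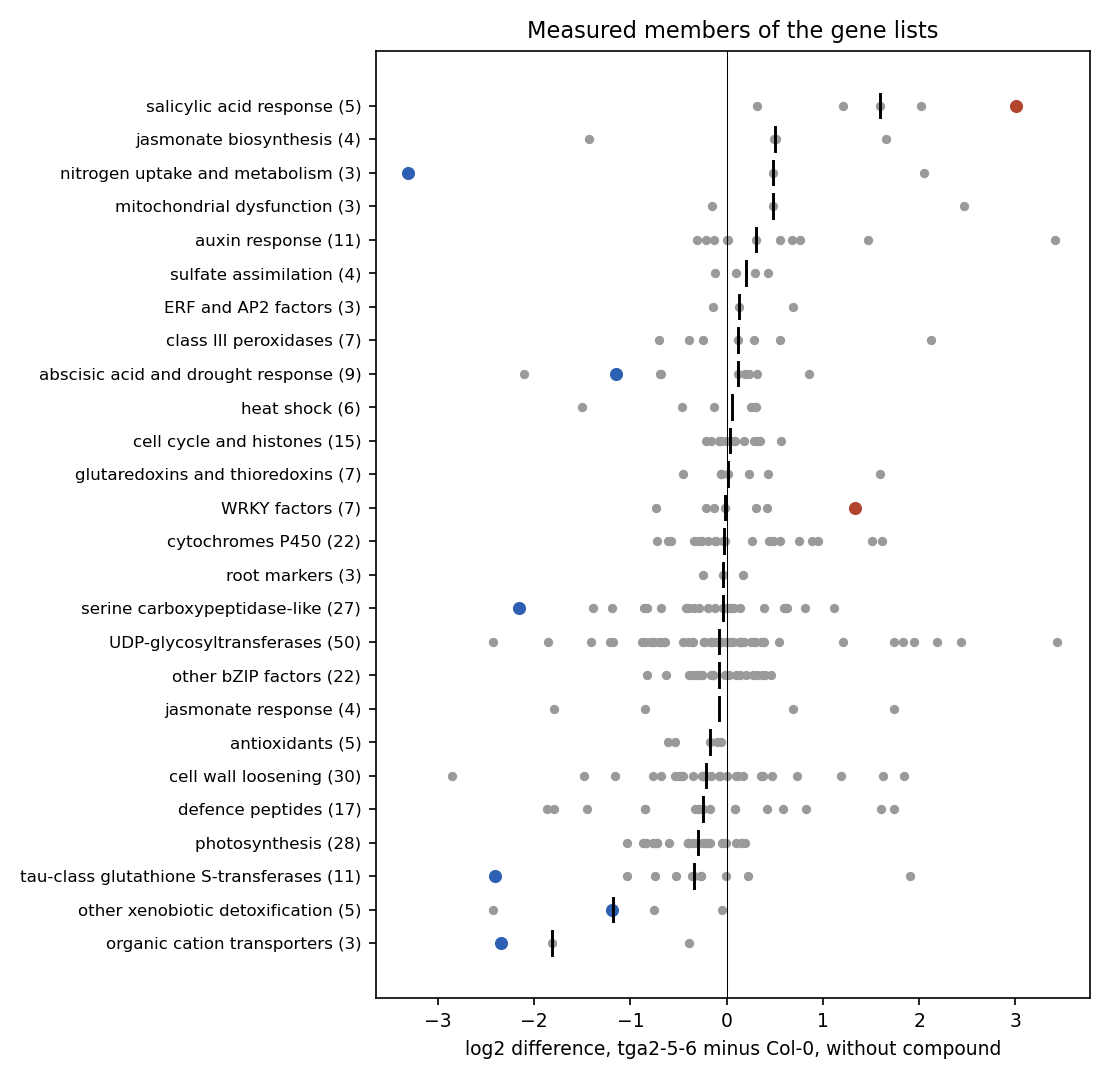
Log2 difference of tga2-5-6 minus Col-0 without compound for each measured gene of the 26 lists with at least 3 measured genes, whose number stands in brackets. Grey points were not called, red points were called higher and blue points called lower, and the black ticks mark list medians; the 8 called genes lie in 8 lists, and the photosynthesis tick stands at -0.30.

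TGA2 and TGA5 lie next to each other on chromosome 5, and TGA6 on chromosome 3. Because a mutation may affect nearby genes, the 15 annotated genes on each side of these loci were examined. Around TGA2 and TGA5, 8 of 30 neighbours were measured and none was called (median -0.04). The widest difference there was at AT5G06940, the gene next to TGA2, with 43.9, 11.7 and 2.23 on the tga2-5-6 arrays, against 44.5, 70.7 and 91.8 on the Col-0 arrays. The highest mutant array was just under the lowest Col-0 array and the others were further below, and the difference of -2.66 ± 1.04, adjusted p = 0.326 did not pass. Around TGA6, 13 of 30 neighbours were measured and none was called (median 0.00). The widest there was AT3G12190, with a mean of 19.7 in tga2-5-6 against 1.19 in Col-0 (adjusted p = 0.206), where the Col-0 level was under the filter value. Elsewhere, AER and AT5G16980 (both lower in tga2-5-6) were adjacent annotated genes, and AT2G43610 and AT2G43620 (both higher) lay 3 annotated genes apart. The other called pairs that were near each other among measured genes were further apart in the annotation, AT5G61660 and AT5G61820 (lower) by 18 genes and AT5G32630 and AT5G33250 (higher) by 41.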

How the data were processed

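Total RNA was linearly amplified and labelled with biotin, per the labels' protocols. The deposited table holds linear intensities of every probe set on every array, which the authors had scaled so that the mean after trimming was the same on every array; the submitters' processing notes name GCRMA, and the algorithm and genome build behind the values are not given in the sources used here. Intensities under 1 were set to 1 and log2-transformed, with no further normalization. Array controls (64 probe sets) were left out, and 21869 of 22810 probe sets passed a filter of at least 16 on 3 or more arrays. Genes came from the platform annotation, updated through the reference annotation: 12848 kept probe sets had 1 gene, 471 several and 8550 none, and only those with 1 gene were named, unless a probe set is given by its identifier.

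A model of group means over the 18 arrays (12 residual and 1.5 prior degrees of freedom) was fitted in limma 3.58.1 under R 4.3.3, with Benjamini-Hochberg adjustment and two-sided tests. The code was tested on simulated data. Replicates are independent per the labels, which do not say from what. The p-values set each difference against the spread within groups, pooled over the 18 arrays. The number of arrays limits the precision.

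The members, gene lists and rules were chosen with earlier results of these data known. Named genes were the 12 highest and 12 lowest called differences with groups that did not overlap, the 6 highest and 6 lowest with a group mean of at least 500, up to 2 called genes each way per list, called genes whose difference changed with a compound, and the 5 highest and 5 lowest called in all 3 treatments; each gene had to be assigned alone. A group mean under 16 is given as a level, not as a fold. After the annotation was seen, cyclophilins were taken out of the cytochrome P450 list, organelle genes out of all lists but photosynthesis, and serine carboxypeptidase-like genes were given a list of their own. A planned search of promoters for TGACG was not run, and coordinates are not printed. Alternatives were other scalings, floors and filters, another moderation, a fit of the 6 arrays alone, a replicate block and leaving out each array.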

Additional observations from a re-analysis of the deposited data

Results flagged for a closer look

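The genotype difference of AER under PPA1 minus that without compound was -2.37 on the log2 scale (adjusted p = 0.0363, limma), as described above. For the pseudogene AT1G42220, the 3 tga2-5-6 arrays lay below the 3 Col-0 arrays without compound and above them under OPDA, where they had 42.7, 35 and 34.8 on the tga2-5-6 arrays, against 20.4, 33.5 and 14.3 on the Col-0 arrays, a difference of 0.805; the difference between these differences had an adjusted p of 0.371. For AT1G05550, the tga2-5-6 arrays lay above the Col-0 arrays without compound and below them under OPDA, with 18, 6.23 and 27.6 on the tga2-5-6 arrays, against 38.7, 57.4 and 27.7 on the Col-0 arrays, a difference of -1.44; the difference between these differences had an adjusted p of 0.337. Neither of these 2 genes passed that test, and their levels were near the filter value of 16 in at least 1 group.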

How the results depend on the processing

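Of the 117 calls without compound (65 higher, 52 lower), median centring gave 50 higher and 52 lower, quantile normalization 57 and 64, no filter 64 and 50, and a filter of at least 100 gave 91 and 68. Setting values under 16 to 16 gave 109 higher and 66 lower, and an intensity trend with robust moderation 100 and 71. A fit of the 6 arrays alone, with fewer residual degrees of freedom, gave 5 higher and 1 lower, and kept 5 of the 117 calls; of the 38 genes chosen by the rule it kept ECS1, AT2G25510 and AT2G05820. Leaving out 1 array gave 21 to 39 higher and 22 to 49 lower; the fewest of the 117 calls, 35, were kept without Col-0 replicate 3. In all 6 of these fits 31 were kept, 20 lower and 11 higher, of which 30 had a mean intensity of at least 100. Of the 58 called genes 11 kept their calls throughout the 6 fits, AT1G16260, AT4G19880 and AT5G61820 among them. Of the 38 chosen by the rule 8 did: URE, OCT5, AT4G13180, AT5G05960, ECS1, AT2G25510, AT1G49750 and cwINV6. Under all alternatives together, 0 of 518 values of these 38 genes changed direction and 208 no longer passed. Leaving out an array could not change the direction, since the groups overlapped in none of the 117 called probe sets. The unchanged direction is therefore no test of these genes.

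The main model did not pair the samples by replicate number. The deviations of same-numbered arrays from their group means had correlations of 0.029, 0.024 and 0.015, each the highest for its number. Those of arrays with unlike numbers ran from -0.024 to 3.2e-05. All were small, and whether equal numbers mark paired samples was not tested. With the replicate block, 55 probe sets were higher and 48 lower, and 92 of the 117 calls were kept; URE, GSTU25, OCT5 and ECS1 kept theirs. Of the 38 genes chosen by the rule 8 lost the call there: AT5G16980, LTI30, AT1G13470, AT2G05820, AT5G37860, AT2G10490, AT5G38040 and AT5G32630; of the other 20 called genes 8 lost it.

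Under PPA1, 151 were higher and 193 lower; the fit of the arrays compared alone gave 31 and 58, and leaving out 1 array 99 to 145 and 139 to 179. Under OPDA, 84 were higher and 88 lower; arrays compared alone gave 3 and 8, a filter of at least 100 gave 135 higher, the intensity trend 138 higher, and leaving out 1 array 47 to 71 higher and 55 to 79 lower. For the change of the genotype difference with PPA1 (0 higher, 2 lower), a floor of 16 gave 2 higher and 24 lower, a filter of at least 100 gave 1 and 14, the intensity trend 5 and 26, quantile normalization 0 lower, arrays compared alone 0 lower, the replicate block 1 lower, and leaving out 1 array 0 to 1 higher and 0 to 7 lower. For that with OPDA (0 and 0), a floor of 16 gave 3 higher and 2 lower and leaving out 1 array 0 to 1 higher and 0 to 3 lower. Except where the number of samples or probe sets changed, the cause was not tested. Probe sets near 16 have levels too low to order, and 58.7% of the kept ones have a single gene.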
